A study of Arabidopsis thaliana with 12 samples.

Results

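Arabidopsis thaliana seedlings treated with 3'-butyl ABA were set against seedlings treated with ABA, 3 libraries against 3, or 6 of the 12 libraries in the series. Members of the comparison were chosen by treatment label alone. 3'-butyl ABA is abscisic acid (ABA) that carries a butyl chain at the 3' position, so the comparison matches 1 pair of compounds that differ by that chain. Both groups were wild-type Col-0 seedlings, labelled as 8 days old (a day older than in the series text), and received 10 µM of their compound for 6 h. All groups, including the DMSO vehicle group quoted here only for its levels, were grown as several seedlings per well of a 96-well plate and treated at 22 °C under continuous light in dilute liquid MS medium with sucrose. Strand-specific poly(A) RNA of whole seedlings was sequenced as paired ends on an Illumina HiSeq. No label says that the replicates came from separate cultures, so p-values measure only the spread between these samples, which may be technical.

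ABA is the hormone of drought responses, stomatal closure and seed dormancy. It binds receptors of the PYR/PYL family, and the bound receptors inhibit clade A PP2C phosphatases. SnRK2 kinases are then released and phosphorylate ABF transcription factors, which bind promoters of genes for dehydrins, late embryogenesis abundant (LEA) proteins and other protective proteins. Transcripts of the receptors, the phosphatases and the enzymes that make and break down ABA also respond to the hormone.

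Values are TPM, a level scaled by gene length and library total, and a fold change is the difference of group means of log2(TPM + 1), 3'-butyl ABA minus ABA, which understates the fold of genes near 0. A gene is called when the limma adjusted p is under 0.05 over the 19451 genes whose mean in the 6 libraries was 1 TPM or more. From the steps between low values, the 3'-butyl ABA libraries held an estimated 9.83, 11.8 and 10.9 times 1000000 reads in genes and the ABA libraries 11.4, 11.0 and 10.3 times 1000000. 1 read in a gene of 1 kb was then worth 0.139 to 0.168 TPM, and this depth covers counting error only. Whole seedlings were used, so fewer cells of a type and less RNA per cell cannot be told apart in any value below.

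Seedlings given 3'-butyl ABA and seedlings given ABA differed little in most transcripts. The fold change was under 0.25 in size for 14693 genes (75.5%) and under 0.5 for 17962 (92.3%). Of the 19451 genes, 17931 (92.2%) had a 95% interval of this fold change that lay wholly between -1 and 1. A 2-fold difference in TPM + 1 thus lay outside the interval of most genes, but for low genes this can hide a larger fold of TPM. With a pseudocount of 0.1 the count was 16824 (86.5%). Calls were made for 370 genes (1.9%), of which 211 were higher (1.08%) and 159 lower (0.817%) with 3'-butyl ABA. At least 2-fold changes were called for 57 genes (0.293%), 43 of them higher (0.221%) and 14 lower (0.072%). The 3 libraries of one compound lay wholly above the 3 of the other for 5034 genes (25.9%), with 3'-butyl ABA above for 2653 (13.6%) and below for 2381 (12.2%).

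**Figure D1:**
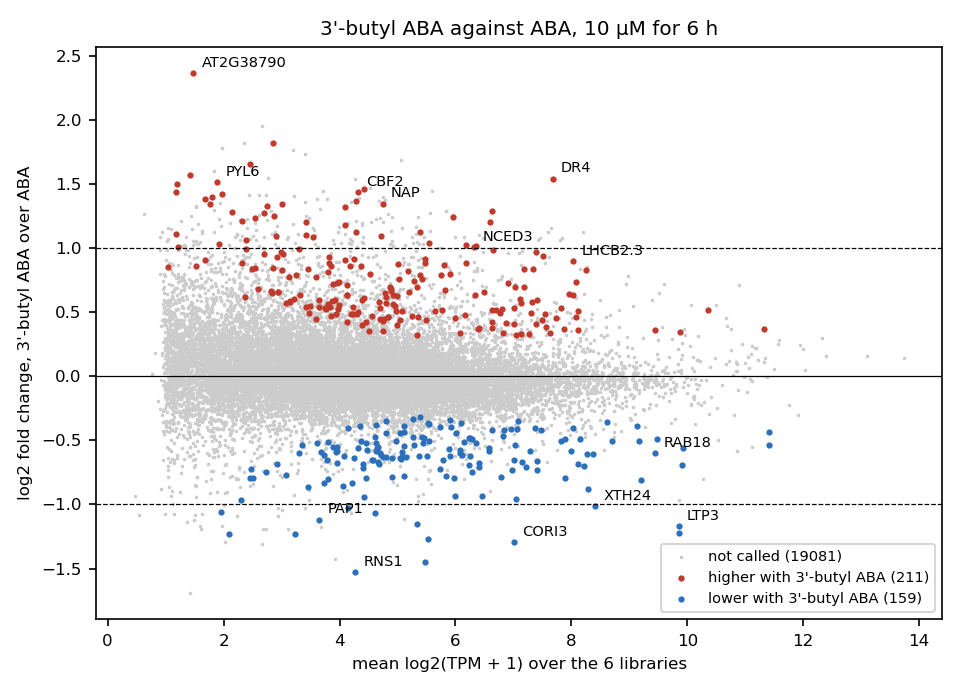
Log2 fold change of 3'-butyl ABA over ABA (vertical) against the mean log2(TPM + 1) over the 6 libraries (horizontal), 1 point per gene, with 211 genes called higher in red and 159 called lower in blue; dashed lines mark 2-fold. Most points lie between -0.5 and 0.5, and called genes reach 2.37 (AT2G38790) and -1.53 (RNS1).

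The call counts depended on single libraries. Without 3'-butyl ABA replicate 1, 2 or 3 the calls numbered 8, 1 and 0, and without ABA replicate 1, 2 or 3 they numbered 835, 0 and 751. In the fits that called 0 genes, 2631 genes (without 3'-butyl ABA replicate 3) and 2857 genes (without ABA replicate 2) had an unadjusted p under 0.05, against 3704 with all 6 libraries. Every one of the 370 genes kept the sign of its fold change in each of these 6 fits. The genes were called from the same libraries that these fits reuse, so a kept sign was nearly fixed in advance and adds no support. ABA replicate 3 stood apart from the other libraries. It lay at -44.0 on the leading principal component (53.9% of the variance of these libraries), while 3'-butyl ABA replicates 1, 2 and 3 lay at 27.0, 9.76 and 16.3 and ABA replicates 1 and 2 at 3.44 and -12.6. Of the 370 called genes, 363 were also called without it. Named genes that lost their call without it are marked as such below. Where the median of a gene list is discussed, it is given with and without that library. Some medians not discussed below also moved without that library. Examples are suberin (0.03 to -0.22), heat stress (-0.17 to -0.38) and galactinol and raffinose (0.43 to 0.26).

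Called genes were not all placed alike relative to the DMSO level, judged by mean log2 values and without a test. Of the 211 genes higher with 3'-butyl ABA, DMSO had the lowest mean of the 3 treatments for 110, lay between the compounds for 52 and had the highest for 49. Of the 159 genes lower with 3'-butyl ABA, DMSO was lowest for 73, between for 48 and highest for 38. The ABA values enter both the call and this placing.

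Receptor transcripts came first in the pathway and held 1 called gene of 9 tested (11.1%, against 1.9% of all genes), PYL6 (AT2G40330, chromosome 2, 16844588 to 16846194), which encodes one of the monomeric ABA receptors. PYL6 had 5.64, 4.59 and 5.53 TPM in the 3'-butyl ABA libraries, against 1.8, 1.49 and 0.496 TPM in the ABA libraries, and 29.8, 31.5 and 41.2 TPM in the DMSO libraries. The 3'-butyl ABA libraries were all above the ABA libraries, and both groups were far below DMSO. The log2 fold change was 1.51 ± 0.24 (SE, limma adjusted p = 0.0333), and it was 1.24 without ABA replicate 3. With a pseudocount of 0.1 the call was lost (limma adjusted p = 0.0575).

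The other 8 receptor genes tested were not called with all 6 libraries. PYL7 had 45.6, 39.2 and 37.9 TPM in 3'-butyl ABA libraries and 30.6, 26.5 and 19.3 TPM in ABA libraries, groups that did not overlap, with a log2 fold change of 0.68 (95% interval 0.30 to 1.06; limma adjusted p = 0.085). PYL7 was called without ABA replicate 1 (limma adjusted p = 0.0331) and without ABA replicate 3 (0.0364), and PYR1 without ABA replicate 1 (0.0127). PYL5 had 17, 16.4 and 19.4 TPM with 3'-butyl ABA and 15.01, 11.9 and 6.31 TPM with ABA, a fold change of 0.69 (95% interval 0.04 to 1.35), and PYL4 had 0.51 (95% interval 0.15 to 0.87). PYL7 stood at 15.9 TPM in DMSO on average, below both compounds, whereas PYL4 and PYL5 stood at 251 and 74.3 TPM in DMSO, above both. Among the dimeric receptors, PYR1 had 0.54 (95% interval 0.03 to 1.04), PYL2 0.58 (95% interval -0.18 to 1.34) and PYL1 -0.08 (95% interval -0.38 to 0.21) as log2 fold changes. PYL8 and PYL9, which act in roots among other tissues, had 0.10 (95% interval -0.16 to 0.35) and 0.47 (95% interval -0.11 to 1.05). The median of the 9 was 0.54, against 0.01 over all genes tested, and 0.34 without ABA replicate 3. Fold changes were positive for 8 of the 9, and 3 of the 9 intervals lay within -1 to 1. The remaining listed receptors, PYL3 and PYL10 to PYL13, had a mean under 1 TPM and were not tested.

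None of the 9 clade A PP2C genes was called, against 1.9% of all genes. All 9 intervals lay within -1 to 1, as did 92.2% of all intervals. These phosphatases hold SnRK2 kinases inactive, and their transcripts are standard reporters of ABA signalling. HAI1 had 204, 167 and 149 TPM with 3'-butyl ABA and 132, 158 and 177 TPM with ABA, against a DMSO mean of 1.32 TPM. HAI2 had 124, 110.0 and 95.4 TPM with 3'-butyl ABA and 89.3, 112 and 104 TPM with ABA, against 1.24 TPM in DMSO. The groups overlapped for both genes, and both compounds were far above DMSO. ABI1 had the highest of the fold changes at 0.29 (95% interval 0.01 to 0.56) and HAI3 the lowest at -0.26 (95% interval -0.81 to 0.30). The others lay between these, with AHG3 at 0.17, HAB2 at 0.08, HAB1 at 0.05, ABI2 at 0.03 and AHG1 at -0.04. AHG1, a phosphatase of seeds, had the widest interval (95% interval -0.92 to 0.84). Here and in later lists, 0 calls lay near the 1.9% of all genes, so a 0 says little about the members.

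SnRK2 kinase genes gave 0 calls of 10 tested, with a median fold change near 0 (-0.10 without ABA replicate 3) and 9 of 10 intervals within -1 to 1. Intervals of the kinases that ABA activates most strongly lay under 2-fold. SNRK2.2 had 0.05 (95% interval -0.11 to 0.20), SNRK2.3 0.24 (95% interval 0.07 to 0.41) and OST1, the kinase of stomatal closure, 0.19 (95% interval -0.37 to 0.74). SNRK2.7 was the gene whose interval reached past 2-fold, at -0.32 (95% interval -1.14 to 0.50). The list of ABA transcription factors and AFP regulators, which includes the ABF bZIP factors, gave 0 calls of 20 tested, a median of 0.10 (0.08 without ABA replicate 3) and 19 intervals within -1 to 1. Genes of the guard cell and stomatal lineage gave 0 calls of 18, with all 18 intervals within -1 to 1.

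**Figure D2:**
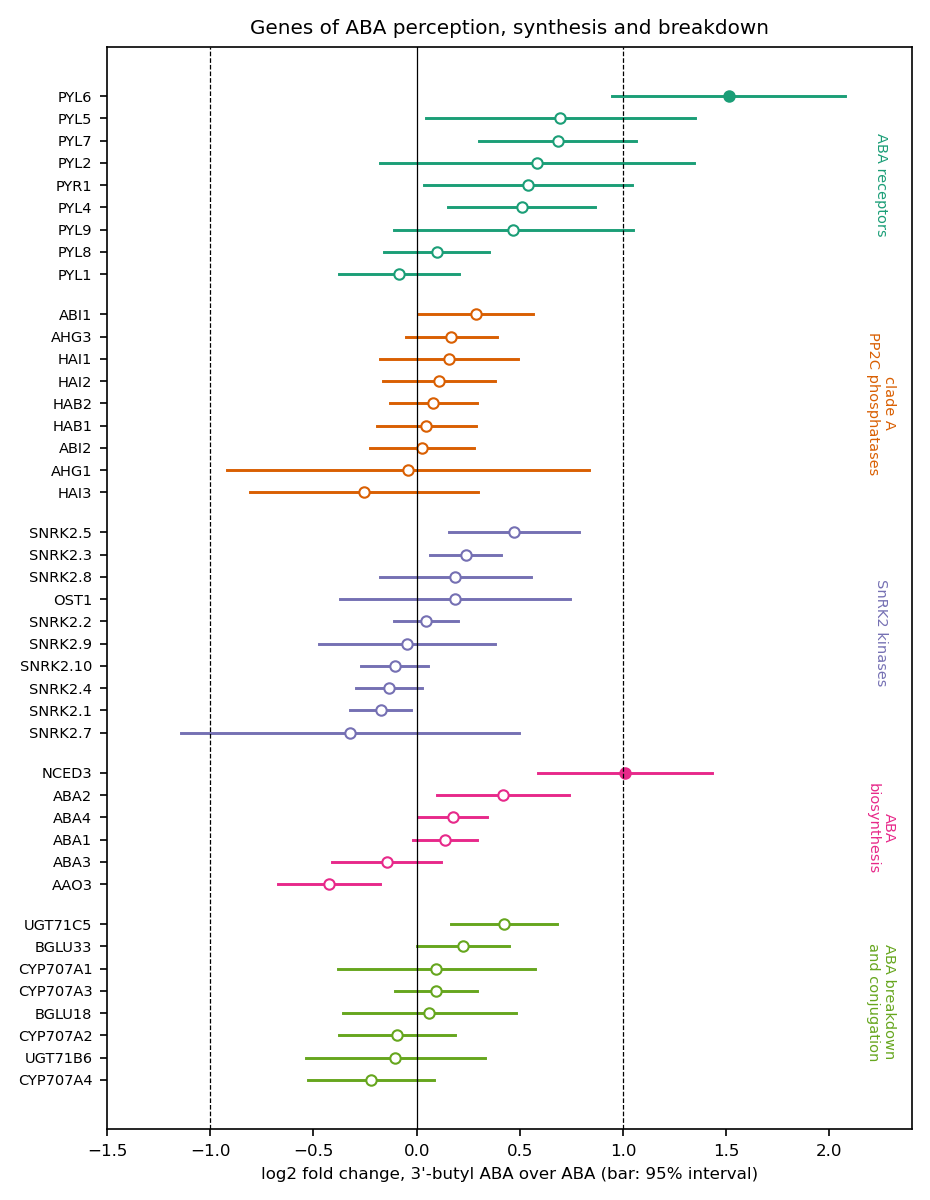
Log2 fold change of 3'-butyl ABA over ABA (horizontal) with its 95% interval for each tested gene of ABA perception, synthesis and breakdown; filled points are called genes and dashed lines mark 2-fold. PYL6 at 1.51 and NCED3 at 1.01 are the called genes, and all 9 PP2C intervals lie within the dashed lines.

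NCED3 (AT3G14440) was the called gene among the 6 ABA biosynthesis genes tested (16.7%, against 1.9% of all genes), and it was higher with 3'-butyl ABA. It encodes the dioxygenase that cleaves carotenoid precursors, the rate-limiting step of ABA synthesis under drought. NCED3 had 131, 115 and 94.5 TPM in the 3'-butyl ABA libraries, against 43.8, 57.2 and 67.7 TPM in the ABA libraries and 11.3, 7.49 and 6.39 TPM in the DMSO libraries. The lowest 3'-butyl ABA library was above the highest ABA library. The log2 fold change was 1.01 ± 0.18 (limma adjusted p = 0.0467), and the call was lost with median-of-ratios scaling of the libraries.

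The other steps of ABA synthesis were not called. AAO3, the aldehyde oxidase of the last step, had 11.9, 14.2 and 14.7 TPM with 3'-butyl ABA and 17, 18.5 and 20.4 TPM with ABA, groups that did not overlap, and a fold change of -0.43 (95% interval -0.67 to -0.18; limma adjusted p = 0.0904). ABA2, the dehydrogenase before it, had 0.42 (95% interval 0.10 to 0.74). ABA1, ABA3 and ABA4 had 0.14, -0.14 and 0.17.

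ABA breakdown and conjugation gave 0 calls of 8 tested, with a median of 0.08 (0.02 without ABA replicate 3) and all 8 intervals within -1 to 1. CYP707A1, an 8'-hydroxylase that inactivates ABA, had 146, 111 and 124 TPM with 3'-butyl ABA and 145, 131 and 86.8 TPM with ABA, against 8.88 TPM in DMSO. Its groups overlapped and its fold change was 0.09 (95% interval -0.38 to 0.57). CYP707A2, CYP707A3 and CYP707A4 had -0.10, 0.09 and -0.22. UGT71C5, which glucosylates ABA, had 0.42 (95% interval 0.17 to 0.68; limma adjusted p = 0.0991, and 0.0482 without ABA replicate 1) and UGT71B6 -0.10. BGLU18 and BGLU33, glucosidases that release ABA from its glucose ester, had 0.06 and 0.22. The 7 ABA transporter genes gave 0 calls, with fold changes between -0.73 (DTX50) and 0.98 (ABCG40).

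Transcripts of the LEA and dehydration protein list were lower with 3'-butyl ABA in the 4 cases called among 23 genes tested. They were LTP3, LTP4, RD20 and RAB18, and no gene of the list was called higher (17.39% called, against 1.9% of all genes). Fold changes were negative for 22 of the 23, with a median of -0.30 (-0.36 without ABA replicate 3), and 18 intervals lay within -1 to 1. For 8 of the 23 genes every 3'-butyl ABA library was below every ABA library, as it was for 12.2% of all genes. For 1 gene every one was above, against 13.6% of all genes.

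RAB18 (AT5G66400), a dehydrin and a standard marker of the ABA response, had 582, 559.8 and 561 TPM with 3'-butyl ABA and 814, 956 and 821 TPM with ABA, against 14.1, 13.5 and 13.2 TPM in DMSO. The groups did not overlap, and both were far above DMSO. The log2 fold change was -0.60 ± 0.08 (limma adjusted p = 0.0226). RD20 (AT2G33380), a caleosin with a calcium-binding domain, had 133, 137 and 132 TPM with 3'-butyl ABA, 228, 241 and 174 TPM with ABA and 4.06, 3.37 and 5.08 TPM in DMSO. Again the compounds did not overlap, and the fold change was -0.66 ± 0.12 (limma adjusted p = 0.0432).

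LTP3 and LTP4 encode lipid transfer proteins. LTP3 had 629.8, 633 and 584 TPM with 3'-butyl ABA and 1021, 1515 and 1714 TPM with ABA, and LTP4 438, 479 and 425 TPM with 3'-butyl ABA and 692, 865 and 797 TPM with ABA. DMSO means were 4.7 and 0.77 TPM. Their fold changes were -1.17 ± 0.18 and -0.81 ± 0.09 (limma adjusted p = 0.0373 and 0.0222), but they are neighbouring similar copies whose reads the counting could divide in error. LTP3 was not called when all 12 libraries were fitted together (limma adjusted p = 0.0788). Among genes of the list that were not called, COR15A had -0.96 (limma adjusted p = 0.0875), RD22 -0.80 (0.0984), RD29A -0.30 (0.126) and ERD14 -0.00 (0.988) as log2 fold changes. AT3G02480, another LEA family gene that is not in the list but was among the largest decreases, is described with those. AT5G60520, an LEA-like gene also outside the list, went the other way (1.57, limma adjusted p = 0.0412) and is among the largest increases.

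**Figure D3:**
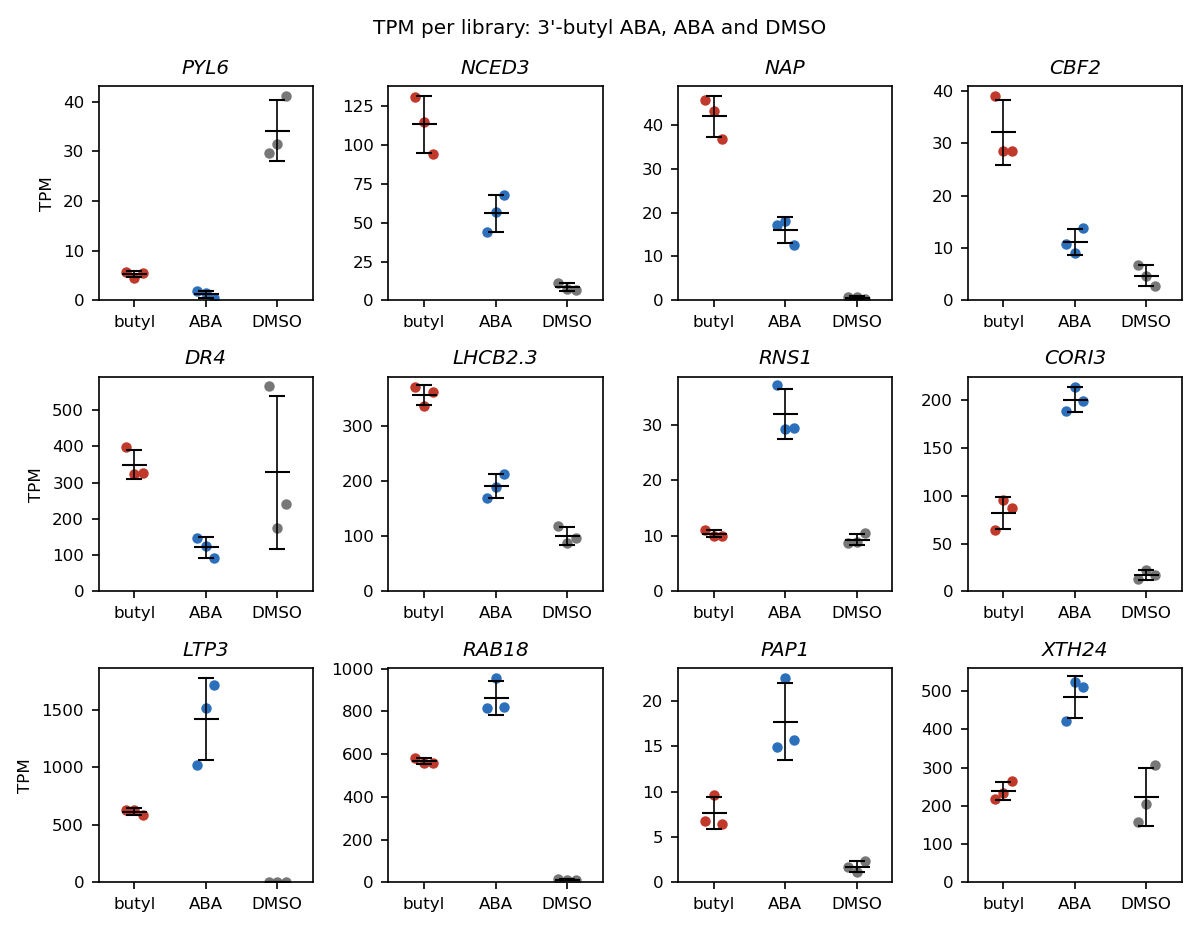
TPM of 12 named genes in each library (points), with group means and SD (bars), for 3'-butyl ABA, ABA and DMSO, n = 3 each; every axis starts at 0. 3'-butyl ABA and ABA libraries do not overlap for any of the 12 genes, and RNS1 is near its DMSO level of 9.32 TPM with 3'-butyl ABA. The absence of overlap was a condition of the largest-change rule, which all but NCED3, LHCB2.3 and RAB18 met.

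The 15 largest increases were taken among called genes whose groups did not overlap, so the absence of overlap was a condition. They ranged from 1.35 to 2.37 in log2 fold change. Named genes among them were DR4, PYL6, FRO6, GRI, CBF2, CYP87A2 and NAP, and the rest are known by their annotation. The largest was of AT2G38790, an uncharacterized protein, with 8.57, 6.46 and 2.52 TPM with 3'-butyl ABA and 0, 0.835 and 0 TPM with ABA. It is listed at 0 in all DMSO libraries and in 2 of the 3 ABA libraries, so its fold change of 2.37 ± 0.41 depends on the pseudocount. Its limma adjusted p was 0.0444 and 0.0597 without ABA replicate 3.

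AT5G54585, also uncharacterized, had 16.7, 10.1 and 11.5 TPM with 3'-butyl ABA and 2.88, 3.69 and 2.06 TPM with ABA, a fold change of 1.82 ± 0.22 (limma adjusted p = 0.0222). DMSO libraries had 2.03, 1.68 and 1.07 TPM, below the ABA libraries. AT1G27020 had 8.99, 8.46 and 8.67 TPM with 3'-butyl ABA and 3.12, 2.65 and 0.938 TPM with ABA, against 88.5, 70.7 and 85.4 TPM in DMSO. Both compounds were thus far below DMSO, and the fold change between them was 1.66 ± 0.27. AT4G21870, an HSP20-like chaperone gene, was placed the same way. It had 29.4, 29.5 and 32.1 TPM with 3'-butyl ABA, 13.9, 11.5 and 8.65 TPM with ABA and 129.7, 139 and 146 TPM in DMSO, and a fold change of 1.37 ± 0.15.

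NAP (AT1G69490, chromosome 1, 26122080 to 26123514), a NAC transcription factor that promotes leaf senescence, was higher with 3'-butyl ABA. It had 45.7, 43.2 and 36.7 TPM with 3'-butyl ABA and 17.1, 18.19 and 12.6 TPM with ABA, against 0.878, 0.729 and 0.364 TPM in DMSO. Every library of 3'-butyl ABA was above every library of ABA, and both groups were above DMSO. The fold change was 1.35 ± 0.14 (limma adjusted p = 0.019). CBF2 (AT4G25470) and CBF1, C-repeat binding factors that switch on cold-response genes, were both called. They were the 2 calls among 9 tested touch, wound and cold factors (22.2%, against 1.9% of all genes). Fold changes of that list were positive for 6 and negative for 3, down to -1.17. Its median was 0.36 (0.12 without ABA replicate 3). CBF2 had 39.1, 28.5 and 28.6 TPM with 3'-butyl ABA and 10.8, 8.96 and 13.9 TPM with ABA, a fold change of 1.44 ± 0.18. CBF1 had 15.6, 15.9 and 16.6 TPM with 3'-butyl ABA and 6.53, 5.66 and 9.3 TPM with ABA, a fold change of 1.08 ± 0.16. They are similar copies in the same cluster, so the division of reads between them is uncertain, and CBF3, the third of the cluster, had 0.54 (limma adjusted p = 0.227).

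DR4, named for repression by drought, had 397, 325 and 327 TPM with 3'-butyl ABA and 147, 126 and 91.2 TPM with ABA, but its DMSO libraries spread from 175 to 567 TPM. Its fold change was 1.54 ± 0.18 (limma adjusted p = 0.0226), and the call was lost when all 12 libraries were fitted together. FRO6, a ferric reductase of green tissue, had 43.2, 26.7 and 35.3 TPM with 3'-butyl ABA and 16.2, 8.69 and 11.7 TPM with ABA. The fold change of 1.46 ± 0.25 had a limma adjusted p of 0.0446, and 0.0641 without ABA replicate 3. GRI, an extracellular regulator of cell death, had 3.06, 2.2 and 2.93 TPM with 3'-butyl ABA and 0.879, 0.365 and 0 TPM with ABA, a fold change of 1.44 ± 0.26.

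The remaining 6 of the 15 were low in both groups, with ABA means between 0.433 and 1.43 TPM. They were the cytochrome P450 gene CYP87A2, the LEA-like gene AT5G60520, the lipid transfer gene AT4G22460, the F-box gene AT3G23880, the pectin lyase-like gene AT2G43880 and PYL6. Fold changes of the 5 besides PYL6 were between 1.39 and 1.57. For AT3G23880 the 3'-butyl ABA libraries (4.91, 3.73 and 5.52 TPM) overlapped with the DMSO libraries (6.39, 4.35 and 4.94 TPM), and the ABA libraries were lower than both (0.94, 1.097 and 1.43 TPM).

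For the 3 largest increases whose upstream window held no annotated exon, and for NAP, added after its values were seen because its window holds a G-box, the 250 bases before the annotated start are shown. They were read 5' to 3' on the gene's strand from the TAIR10.1 assembly. Capitals mark ACGTG, the core of the ABA response element bound by ABF factors, or its reverse complement CACGT. They lie at chr5:22175211-22175460 (plus strand) for AT5G54585, chr1:9378154-9378403 (plus) for AT1G27020, chr5:24333145-24333394 (minus) for AT5G60520 and chr1:26121830-26122079 (plus) for NAP.
AT5G54585: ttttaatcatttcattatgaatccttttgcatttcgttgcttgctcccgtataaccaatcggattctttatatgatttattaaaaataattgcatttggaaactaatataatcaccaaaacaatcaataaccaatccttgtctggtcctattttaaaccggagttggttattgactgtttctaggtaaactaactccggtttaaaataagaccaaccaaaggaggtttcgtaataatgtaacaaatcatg
AT1G27020: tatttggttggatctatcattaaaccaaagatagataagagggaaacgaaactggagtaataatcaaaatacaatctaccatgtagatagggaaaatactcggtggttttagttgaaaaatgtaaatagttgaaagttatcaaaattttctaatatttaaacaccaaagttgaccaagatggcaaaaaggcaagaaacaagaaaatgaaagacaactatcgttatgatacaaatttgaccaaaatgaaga
AT5G60520: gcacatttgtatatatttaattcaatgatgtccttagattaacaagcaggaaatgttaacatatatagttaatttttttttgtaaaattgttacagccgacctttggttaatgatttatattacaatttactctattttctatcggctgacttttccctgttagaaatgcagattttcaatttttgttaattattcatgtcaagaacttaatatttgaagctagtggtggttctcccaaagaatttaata
NAP: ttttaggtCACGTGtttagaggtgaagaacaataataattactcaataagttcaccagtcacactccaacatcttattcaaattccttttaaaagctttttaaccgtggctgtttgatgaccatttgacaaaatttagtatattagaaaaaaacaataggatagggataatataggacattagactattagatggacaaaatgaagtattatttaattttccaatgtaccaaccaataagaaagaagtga
The first 3 held no capitals in this stretch, and NAP held its core inside 1 G-box, CACGTG.

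The 15 largest decreases, taken under the same condition of no overlap, ranged from -0.97 to -1.53. RNS1 (AT2G02990, chromosome 2, 873506 to 874886), a secreted ribonuclease induced by phosphate shortage and wounding, was the largest. It had 11.1, 10.1 and 9.96 TPM with 3'-butyl ABA and 37.1, 29.3 and 29.5 TPM with ABA, against 8.69, 8.84 and 10.4 TPM in DMSO. The 3'-butyl ABA libraries were near the DMSO libraries, and every ABA library was above both. RNS1 averaged 10.4 ± 0.622 TPM with 3'-butyl ABA and 32 ± 4.48 TPM with ABA (SD, n = 3 each). The log2 fold change was -1.53 ± 0.11 (limma adjusted p = 0.0056), the smallest adjusted p among these 30 genes of largest change. AT4G16563, an aspartyl protease gene, was also near DMSO with 3'-butyl ABA, at 23.6, 25 and 29.7 TPM with 3'-butyl ABA, 58.6, 68.6 and 95.3 TPM with ABA and 29.9, 34.6 and 30.7 TPM in DMSO. Its fold change was -1.45 ± 0.18.

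CORI3, a coronatine-induced C-S lyase that also responds to jasmonate, was higher than DMSO with both compounds and lower with 3'-butyl ABA than with ABA. It had 63.6, 95.9 and 86.7 TPM with 3'-butyl ABA, 188, 214 and 198 TPM with ABA and 12.6, 22.4 and 16.7 TPM in DMSO, a fold change between the compounds of -1.29 ± 0.15 (limma adjusted p = 0.0222). AT3G02480, the LEA family gene, had 683, 587 and 550.2 TPM with 3'-butyl ABA, 1509.7, 1759.7 and 1049 TPM with ABA and 22.5, 20.4 and 22.6 TPM in DMSO. The compounds did not overlap, and the fold change was -1.22 ± 0.19. PAP1 (AT1G56650), the MYB factor that switches on anthocyanin genes, had 6.81, 9.65 and 6.39 TPM with 3'-butyl ABA and 14.98, 22.6 and 15.7 TPM with ABA. Its fold change was -1.12 ± 0.19 (limma adjusted p = 0.0419). It was the called gene among 19 tested of the flavonoid and anthocyanin list (5.26%, against 1.9% of all genes).

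AT1G22690, a gibberellin-regulated family gene, was far below DMSO in both groups. It had 27, 28 and 23.3 TPM with 3'-butyl ABA, 81.9, 49.6 and 50.3 TPM with ABA and 298, 304 and 293 TPM in DMSO. The other decreases were of AT5G05600, an oxygenase gene (-1.27), AT2G32190, a cysteine-rich transmembrane domain gene (-1.23), AT5G39520 of unknown function (-1.23), AGP17, an arabinogalactan protein (-1.07), CYP76C2, a cytochrome P450 (-1.03), and UMAMIT17, of a family of amino acid transporters (-0.97). Their ABA means ranged from 5.64 to 71.4 TPM. LTP3, XTH20 and XTH24 complete the 15.

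The same stretch is shown for the 3 largest decreases, and for RD20, the ABA-response marker described above, which was also added after its values were seen. They lie at chr2:873256-873505 (plus strand) for RNS1, chr4:9331647-9331896 (minus) for AT4G16563, chr4:12310129-12310378 (plus) for CORI3 and chr2:14146556-14146805 (minus) for RD20, with the same capitals.
RNS1: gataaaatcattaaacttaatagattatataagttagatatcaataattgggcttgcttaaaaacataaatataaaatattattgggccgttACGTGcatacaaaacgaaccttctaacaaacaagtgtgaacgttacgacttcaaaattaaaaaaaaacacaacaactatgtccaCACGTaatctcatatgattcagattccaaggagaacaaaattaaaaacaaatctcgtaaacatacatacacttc
AT4G16563: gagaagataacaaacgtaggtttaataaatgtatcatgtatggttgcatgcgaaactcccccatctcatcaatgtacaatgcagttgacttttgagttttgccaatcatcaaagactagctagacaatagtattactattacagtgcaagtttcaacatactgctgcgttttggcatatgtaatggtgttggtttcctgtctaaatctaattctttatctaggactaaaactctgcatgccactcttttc
CORI3: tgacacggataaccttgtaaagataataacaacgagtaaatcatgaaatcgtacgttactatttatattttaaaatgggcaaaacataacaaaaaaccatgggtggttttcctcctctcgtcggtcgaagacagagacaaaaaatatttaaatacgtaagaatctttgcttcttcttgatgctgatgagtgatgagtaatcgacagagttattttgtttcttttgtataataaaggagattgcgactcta
RD20: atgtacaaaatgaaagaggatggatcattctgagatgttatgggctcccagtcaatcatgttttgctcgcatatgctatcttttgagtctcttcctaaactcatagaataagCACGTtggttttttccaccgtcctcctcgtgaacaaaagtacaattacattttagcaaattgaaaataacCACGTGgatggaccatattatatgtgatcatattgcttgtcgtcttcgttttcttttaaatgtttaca
RNS1 held 2 separate core matches, and RD20 a G-box and a further core match. AT4G16563 and CORI3 held none.

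Across all called genes, windows from 250 bases before to 50 after the annotated start were searched for short motifs on both strands. The ABA response element core ACGTG, which the G-box CACGTG contains, was in 46.5% of the 43 promoters of genes at least 2-fold higher with 3'-butyl ABA and in 42.9% of the 14 of genes at least 2-fold lower, against 28.4% of 19316 promoters of tested genes. Among all called genes it was in 37.9% of the 211 higher and 31.2% of 157 lower. The G-box was in 16.6% of the higher and 8.92% of the lower promoters, against 9.25% of all. AAATATCT, the evening element of clock-regulated genes, was in 7.58% of the higher and 14.6% of the lower promoters, against 6.02% of all. AAACCCTA, the telo box, was in 0.474% and 5.1%, against 5.48% of all, and TGGGCC, the site II element, in 7.58% and 7.01%, against 18.9% of all. Both of the last elements are common in promoters of genes for ribosomes and growth. The shares describe letters in the window and were not tested.

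Photosynthesis genes that were called were all higher with 3'-butyl ABA. Of 31 light harvesting and photosystem genes 3 were called higher and 0 lower (9.68% called, against 1.9% of all genes), 30 fold changes were positive, and the median was 0.22 (0.27 without ABA replicate 3). 30 of the 31 intervals lay within -1 to 1. The summed TPM of the list was 85991, 89583 and 89086 with 3'-butyl ABA, 71561, 74002 and 86032 with ABA, and 60905, 62560 and 54538 in DMSO. ABA replicate 3 overlapped with the 3'-butyl ABA libraries in that sum, and the other ABA libraries were lower.

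LHCB2.3, an antenna protein of photosystem II, had 370.3, 335 and 360.1 TPM with 3'-butyl ABA, 169.8, 189 and 212 TPM with ABA and 119, 87.5 and 95.9 TPM in DMSO. Its fold change of 0.90 ± 0.09 (limma adjusted p = 0.0161) stood beside 0.40 for LHCB2.1 and 0.37 for LHCB2.2, which were not called. Reads of these similar copies may be divided in error. LHCB5, a minor antenna protein, had 0.37 ± 0.06 and PSAN, a photosystem I subunit, 0.35 ± 0.07, and neither call held with median-of-ratios scaling or with all 12 libraries. Of 13 Rubisco and Calvin cycle genes 2 were called higher (15.4%, against 1.9% of all genes called), with a median of 0.27 (0.31 without ABA replicate 3). For 10 of the 13 the 3'-butyl ABA libraries were all above the ABA libraries, against 13.6% of all genes. RCA, Rubisco activase, had 1579.6, 1538 and 1606 TPM with 3'-butyl ABA, 1187, 1049.7 and 1073 TPM with ABA and 1022, 1041 and 992 TPM in DMSO, a fold change of 0.51 ± 0.07 (limma adjusted p = 0.0233). CP12-2, which binds Calvin cycle enzymes in the dark, had 0.59 ± 0.11. CAO, the oxygenase that makes chlorophyll b, was the called gene of 12 in chlorophyll synthesis (8.33%, against 1.9% of all genes). It had 132, 126 and 126 TPM with 3'-butyl ABA and 81.8, 86.5 and 104 TPM with ABA (0.49 ± 0.09).

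Chlorophyll breakdown and senescence genes moved in both directions, with 1 called higher and 2 lower of 11 tested (27.3%, against 1.9% of all genes). NAP is the higher one. PAO (AT3G44880), the pheophorbide a oxygenase that opens the chlorophyll ring, had 43.9, 49.1 and 47.6 TPM with 3'-butyl ABA, 69, 98.2 and 80.4 TPM with ABA and 17.5, 25.1 and 28.4 TPM in DMSO. SWEET15 (AT5G13170), a sugar exporter of senescing leaves, had 96.7, 101 and 90.7 TPM with 3'-butyl ABA, 144, 202 and 142 TPM with ABA and 6.39, 11.8 and 9.77 TPM in DMSO. Both were below ABA without overlap and above DMSO, with fold changes of -0.79 ± 0.12 and -0.73 ± 0.14 (limma adjusted p = 0.0333 and 0.0481). NYC1, a chlorophyll b reductase, had -0.39 (limma adjusted p = 0.0513) and SEN1 0.85 (0.0604), and neither was called. SAG12 is listed at 0 in all 6 libraries.

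Cell wall enzymes of growing tissue also moved in both directions, with 3 called higher and 2 lower of 24 tested (20.8%, against 1.9% of all genes). The higher ones were expansins, which loosen walls. EXPA1 had 124, 111 and 109.8 TPM with 3'-butyl ABA, 73.8, 51.2 and 47 TPM with ABA and 459.9, 339 and 298 TPM in DMSO, a fold change of 1.02 ± 0.16 (limma adjusted p = 0.0363). Its 3'-butyl ABA libraries lay between the ABA and the DMSO libraries. EXPB1 had 16.8, 14.9 and 12.7 TPM with 3'-butyl ABA and 7.1, 5.11 and 6.89 TPM with ABA, a fold change of 1.105 ± 0.15, and EXPA11 had 0.70. The lower ones were xyloglucan endotransglucosylases, which cut and rejoin wall xyloglucan. XTH24 had 219, 235 and 264 TPM with 3'-butyl ABA and 421, 523 and 509.7 TPM with ABA, against 157, 204 and 307 TPM in DMSO. Its fold change was -1.01 ± 0.10 (limma adjusted p = 0.0161), and that of XTH20 was -1.06 ± 0.17. TCH4, another gene of that family, had -0.74 (limma adjusted p = 0.101).

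In the gibberellin list 1 gene rose and 1 fell of 14 tested (14.3%, against 1.9% of all genes). GASA6 had 178, 128 and 137 TPM with 3'-butyl ABA, 78.7, 54.7 and 57.6 TPM with ABA and 384, 189.6 and 224 TPM in DMSO, a fold change of 1.203 ± 0.17. GASA1 had 308, 361 and 385 TPM with 3'-butyl ABA and 537, 483 and 476 TPM with ABA, a fold change of -0.51 ± 0.09. Both encode small secreted peptides that respond to gibberellin. Of 29 auxin response and transport genes 1 was called (3.45%, near the 1.9% of all genes). It was IAA14, a repressor that acts in lateral root formation. IAA14 had 22.8, 20.6 and 21 TPM with 3'-butyl ABA and 14.2, 11.5 and 12.5 TPM with ABA (0.71 ± 0.10). All 29 intervals of the auxin list lay within -1 to 1. EIR1, an auxin efflux carrier gene outside the list, was called more than 2-fold higher and is described under other observations. Ethylene genes (10 tested) and type-A cytokinin response regulators (8 tested) gave 0 calls.

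Of 20 jasmonate genes 2 were called lower and none higher (10.0%, against 1.9% of all genes), with a median of -0.27 (-0.36 without ABA replicate 3). They were AOC2 and AOC1, allene oxide cyclases of jasmonate synthesis. AOC2 had 222, 230.2 and 241 TPM with 3'-butyl ABA, 316, 399 and 424 TPM with ABA and 203, 243 and 322 TPM in DMSO, so the 3'-butyl ABA libraries lay within the DMSO range. AOC1 had 51.1, 51.5 and 61.4 TPM with 3'-butyl ABA and 73.2, 83.7 and 89 TPM with ABA. The fold changes were -0.70 ± 0.11 and -0.58 ± 0.10 (limma adjusted p = 0.0329 and 0.0412), and reads of these neighbouring copies may be divided in error. AOS, the step before them, had -0.58 (limma adjusted p = 0.167), and 8 of the 20 genes had every 3'-butyl ABA library below every ABA library, against 12.2% of all genes. Immunity and salicylic acid genes gave 0 calls of 19.

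**Figure D4:**
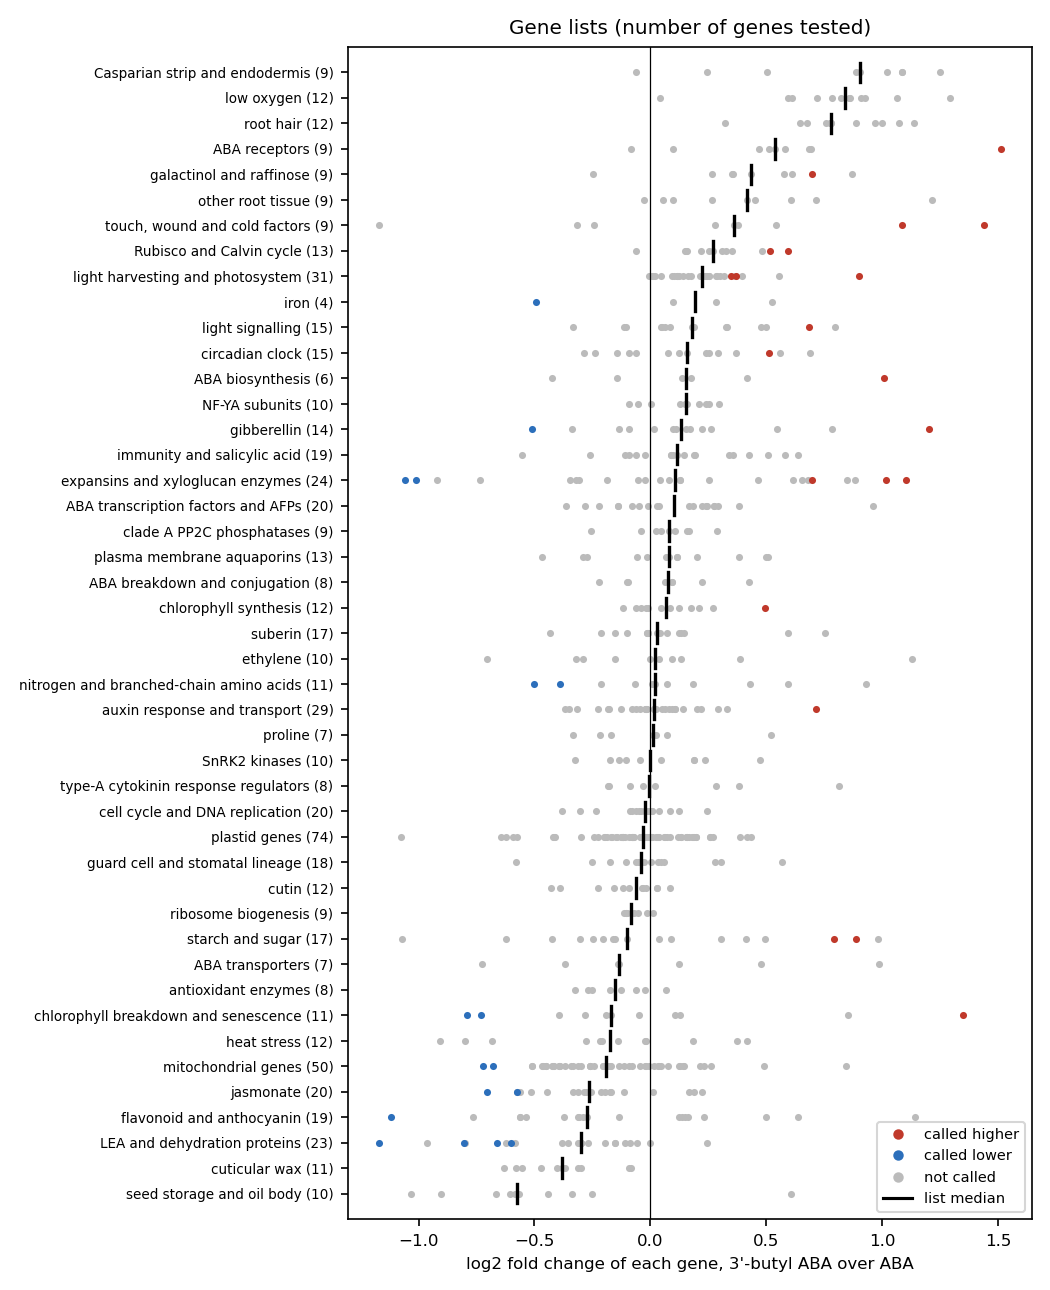
Log2 fold change of 3'-butyl ABA over ABA (horizontal) for every tested gene of each list (rows, number tested in brackets), with called genes coloured and the list median as a black bar. Medians lie between 0.91 (Casparian strip and endodermis) and -0.58 (seed storage and oil body), and neither of those lists holds a called gene.

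Among sugar and osmolyte genes 3 were called, each higher with 3'-butyl ABA, while the starch and sugar list as a whole was split. MIPS1, which makes inositol for raffinose-type sugars, had 182, 164 and 151 TPM with 3'-butyl ABA, 90.6, 105 and 110.0 TPM with ABA and 108, 107 and 95.2 TPM in DMSO. Its 3'-butyl ABA libraries were above both the ABA and the DMSO libraries, which overlapped, and its fold change was 0.70 ± 0.10 (limma adjusted p = 0.0257). TPS8, of the trehalose phosphate synthase family, had 64.2, 58.7 and 56.4 TPM with 3'-butyl ABA and 41.3, 30.6 and 25.5 TPM with ABA (0.89 ± 0.16). STP1, a hexose importer, had 56.5, 45.7 and 61.5 TPM with 3'-butyl ABA and 37.3, 28.9 and 27.1 TPM with ABA (0.79 ± 0.15). The list sizes were 9 genes for galactinol and raffinose (1 called, 11.1%) and 17 for starch and sugar (2 called, 11.8%), against 1.9% of all genes. Of those 17, 8 had every 3'-butyl ABA library below every ABA library and 6 had every one above, against 12.2% and 13.6% of all genes. Among the 17, 9 fold changes were negative, and the median was -0.10 (-0.09 without ABA replicate 3). The sugar exporter SWEET15, called lower, is counted with the senescence genes. Proline genes gave 0 calls of 7, with all 7 intervals within -1 to 1.

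Called genes of nitrate assimilation, 2 in number, were lower with 3'-butyl ABA. NIA1, nitrate reductase, had 463, 504 and 505 TPM with 3'-butyl ABA, 619.5, 655 and 655 TPM with ABA and 767, 776 and 767 TPM in DMSO. NIR1, nitrite reductase, had 431, 529.7 and 487 TPM with 3'-butyl ABA, 618, 695 and 735 TPM with ABA and 741, 859 and 775 TPM in DMSO. In both, the 3'-butyl ABA libraries were lowest and the DMSO libraries highest, with fold changes of -0.39 ± 0.06 and -0.50 ± 0.10 (limma adjusted p = 0.0333 and 0.0481). They were the calls among 11 genes tested of nitrogen and branched-chain amino acid metabolism (18.18%, against 1.9% of all genes). The list as a whole did not move with them. Of the 11 fold changes, 7 were positive, up to 0.93, and 4 were negative. The list median was 0.02 (-0.01 without ABA replicate 3). FER1, the iron store ferritin, had 549, 621 and 628 TPM with 3'-butyl ABA and 871, 877 and 779 TPM with ABA (-0.49 ± 0.08). It was the called one of 4 iron genes tested (25%, against 1.9% of all genes).

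In the clock and light lists, of 15 genes each, 1 gene was called higher in each (6.67%, against 1.9% of all genes). LNK2 (AT3G54500), a coactivator of clock genes, had 37.9, 39.5 and 41.2 TPM with 3'-butyl ABA and 31, 25.4 and 26.1 TPM with ABA (0.51 ± 0.09). HFR1, which restrains shade responses, had 41.4, 37.3 and 31.5 TPM with 3'-butyl ABA, 22.2, 24.1 and 20.8 TPM with ABA and 9.08, 5.22 and 4.19 TPM in DMSO (0.68 ± 0.11). The groups did not overlap for either gene.

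Surface lipid genes gave no calls. All 11 cuticular wax genes tested had negative fold changes with a median of -0.38 (-0.28 without ABA replicate 3), and 8 of them had every 3'-butyl ABA library below every ABA library, against 12.2% of all genes. KCS6, an elongase of wax precursors, had 229, 245 and 246 TPM with 3'-butyl ABA and 291, 343 and 369.7 TPM with ABA, a fold change of -0.47 (limma adjusted p = 0.0519). CER1, the alkane-forming enzyme, had 133, 132 and 137 TPM with 3'-butyl ABA and 159, 197 and 258 TPM with ABA (-0.58, limma adjusted p = 0.124). ABA replicate 3 was the highest library for both. All 11 wax intervals lay within -1 to 1, as did all 12 of cutin, while suberin had 15 of 17 within it. KCS6 and CER1 were chosen after their values were seen.

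Cell cycle and DNA replication (20 tested), ribosome biogenesis (9), NF-YA subunits (10) and antioxidant enzymes (8) gave 0 calls, with every interval within -1 to 1. Of the 8 antioxidant genes 4 had every 3'-butyl ABA library below every ABA library, against 12.2% of all genes. Heat stress (12 tested) and plasma membrane aquaporins (13) also gave 0 calls. Plastid-encoded genes gave 0 calls of 74, with a summed TPM of 11080, 12478 and 11817 with 3'-butyl ABA and 12357, 11372 and 12775 with ABA (two-sided exact permutation p = 0.6). Mitochondrial genes summed to 314.6, 350.8 and 333.2 TPM with 3'-butyl ABA and 374.8, 360.3 and 399.4 TPM with ABA. The groups did not overlap (two-sided exact permutation p = 0.1, the smallest possible with 3 against 3). The libraries were of poly(A) RNA, so both sums cover only the plastid and mitochondrial transcripts that this selection kept. In the mitochondrial list 2 of 50 genes tested were called lower (4%, against 1.9% of all genes), ATMG00516 (-0.72 ± 0.12) and ATMG01000 (-0.68 ± 0.12).

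Calls of named genes besides those marked above also depended on the setting. With all 12 libraries fitted, the calls of AT4G22460, FRO6, CYP87A2, AT2G32190, XTH24, LHCB2.3, CP12-2, SWEET15, EXPB1, GASA6, AOC2, AOC1, TPS8, STP1, NIR1, LNK2, HFR1, FER1 and both mitochondrial genes were lost. With no filter on low genes, those of AT2G38790, AT4G22460, AT5G39520, PAP1, CYP76C2, RD20, NCED3, PSAN, CP12-2, CAO, SWEET15, GASA1, AOC1, TPS8, STP1, NIR1, LNK2 and ATMG01000 were lost. A pseudocount of 0.1 ended those of AT2G38790, AT1G27020, AT5G60520, AT4G22460, GRI, CP12-2, CAO, SWEET15, TPS8, STP1 and NIR1. Median-of-ratios scaling ended those of CAO and NIR1, and quantile normalization that of AT4G22460. Without ABA replicate 1 the calls of AT2G38790, AT5G05600, AT5G39520, AT3G02480, CYP76C2, RD20, PSAN, CAO and GASA1 were lost. Every fold change among these kept its sign, which reuse of the same libraries nearly fixed in advance.

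Markers of root tissue, low-oxygen genes and seed storage genes had list medians of 0.42 or more in size, with 0 calls, and they moved with single libraries. Root hair genes (12 tested) had a median of 0.78, Casparian strip and endodermis genes (9) 0.91, other root genes (9) 0.42 and low-oxygen genes (12) 0.84. Without ABA replicate 3 these medians were 0.53, 0.71, 0.22 and 0.20. Seed storage and oil body genes (10) had a median of -0.58, and 0.04 without that library.

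Root hair markers summed to 204.9, 112.4 and 219.8 TPM with 3'-butyl ABA, 152.5, 83.7 and 47.7 TPM with ABA, and 243.7, 107.3 and 94.1 TPM in DMSO. The groups overlapped, and DMSO libraries spread as widely as the treated ones. Casparian strip and endodermis markers summed to 180.2, 140.2 and 164.1 TPM with 3'-butyl ABA, 132.5, 80.2 and 63.6 TPM with ABA, and 174.7, 73.3 and 74.7 TPM in DMSO. Here all 3 libraries of 3'-butyl ABA were above all 3 of ABA, but DMSO replicate 1 was as high. Other root markers summed to 1991 to 2272 TPM with 3'-butyl ABA, 1350 to 1718 TPM with ABA and 1638 to 3263 TPM in DMSO. No listed root marker was at 0 in all 6 libraries, and the defining marker CASP1 had 60.7, 49.7 and 53.5 TPM with 3'-butyl ABA and 43.1, 23.5 and 15.5 TPM with ABA. The part of these shifts in root markers in the calls above was not tested.

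ADH1, the alcohol dehydrogenase of low-oxygen metabolism, had 1351, 813 and 880.3 TPM with 3'-butyl ABA and 1114, 812 and 238 TPM with ABA. ABA replicate 3 was far below the other 5 libraries, which overlapped. CRA1, a seed storage protein, had 415, 242 and 328 TPM with 3'-butyl ABA and 202, 374 and 882 TPM with ABA, and ABA replicate 3 was the highest of the 6. CASP1, ADH1 and CRA1 were chosen as examples after their values were seen.

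**Figure D5:**
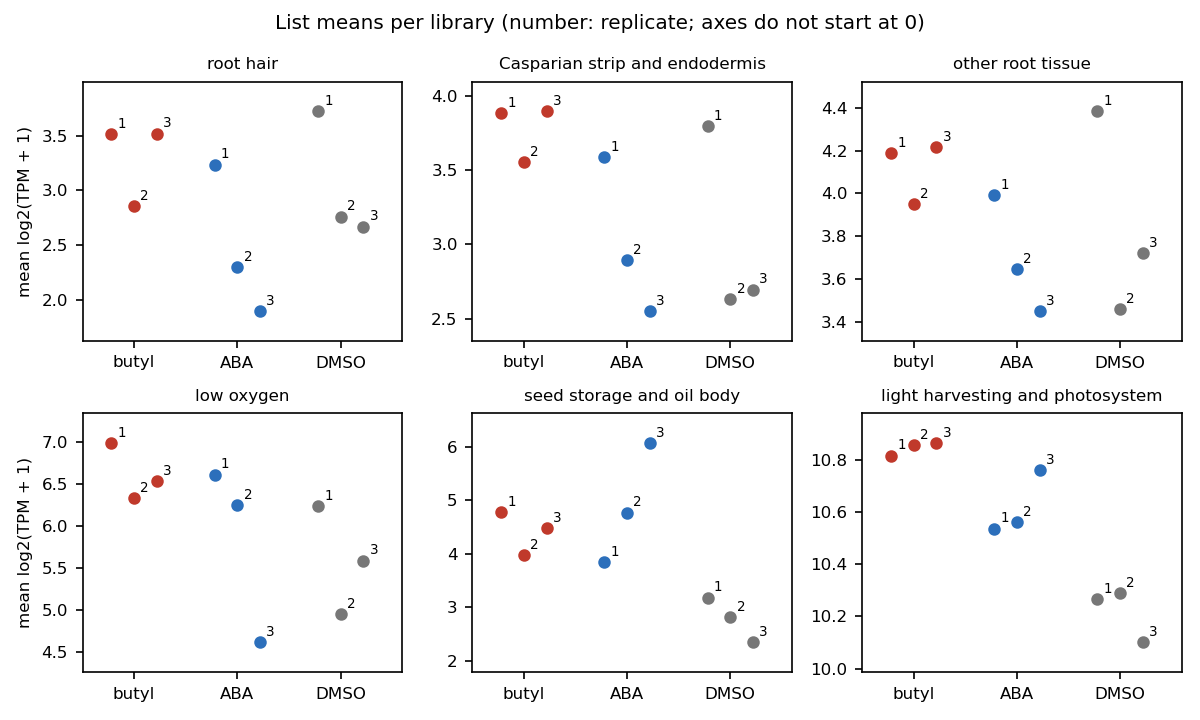
Mean log2(TPM + 1) over the tested genes of 6 lists in each library (points, numbered by replicate) for 3'-butyl ABA, ABA and DMSO; axes do not start at 0. ABA replicate 3 has the lowest root hair (1.90) and low-oxygen (4.62) means of the 9 libraries shown and the highest seed storage mean (6.07).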

How the data were processed

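The comparison used 3 libraries of seedlings treated with 3'-butyl ABA and 3 treated with ABA, grouped by the treatment label. The deposited values are TPM made by the authors, 1 column per library over 27655 genes, each library summing to 1000000. Per the submitters' processing notes, bcl2fastq and the TAIR10 genome were used; how reads were aligned and counted, and against which annotation release, is not given in the sources used here. Depth was estimated from the steps between values of 2399 low genes, 93.1% of which fell on whole multiples of 1 step to within 0.01 of a step. A count test had been foreseen only if the files held counts, and they do not.

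Values were taken as log2(TPM + 1). The 19451 genes whose mean over the 6 libraries was 1 TPM or more were fitted with limma 3.58.1 in R 4.3.3 (lmFit, eBayes with trend and robust; 4 residual degrees of freedom, and 3.76 prior ones at the median). Tests were two-sided, and p-values were adjusted by Benjamini-Hochberg over the whole set of genes, with 0.05 as threshold. The fit was also run on simulated data in which all libraries varied alike and none stood apart. The simulation thus does not cover a library such as ABA replicate 3 and adds no support to the calls. Intervals are unadjusted 95% intervals. Single values per library were compared with exact permutation tests.

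Gene names and coordinates were taken from RefSeq's annotation of TAIR10.1, which holds 27445 of the gene IDs. Of the 210 others, 122 are mitochondrial. Promoter windows were read from that assembly for 19316 tested genes. In all, 43 lists with 612 genes were used, after 10 were dropped because ID and symbol did not match, with 88 plastid and 122 mitochondrial IDs as 2 further lists. The lists, tests and rules were chosen with earlier results of these data known. Named genes are the 15 largest increases and 15 largest decreases among called genes with no overlap between the groups' libraries, up to 4 called genes per list, and all tested genes of the receptor, PP2C, SnRK2, biosynthesis and breakdown lists. Others are named as examples of a list, and those were chosen after their values were seen. Alternatives tried were median-of-ratios scaling, quantile normalization, no filter on low genes, a pseudocount of 0.1, a fit of all 12 libraries, a replicate block and leaving out each library.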

Additional observations from a re-analysis of the deposited data

How the results depend on the processing

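All 370 called genes kept their sign under every alternative run, which reuse of the same libraries nearly fixed in advance. Calls numbered 378 with scaling by median of ratios, 444 after quantile normalization, 243 with no filter on low genes (23462 tested), 333 with a pseudocount of 0.1 and 313 with all 12 libraries fitted. Leaving out 1 library gave 0 to 835 calls and 0 to 194 calls of at least 2-fold; the count of genes with an interval within -1 to 1 was 17305 to 18477 of 19451. Fits without 1 library have fewer samples, and the cause of their spread was not tested. Of 60 called named genes, 24 lost the call with all 12 libraries, 18 with no filter, 12 with a pseudocount of 0.1, 1 with quantile normalization and 5 with scaling by median of ratios. None was called in more than 3 of the 6 fits that left out a library.

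Equal replicate numbers gave no clear pairing of the libraries. Deviations from the group means correlated at 0.230, -0.0537 and 0.0662 within numbers 1, 2 and 3. The correlation was 0.223 between 3'-butyl ABA replicate 2 and ABA replicate 3, so not every library correlated best with its own number. Whether libraries of equal number were handled together is not labelled and was not tested. With the replicate block, calls numbered 415, of which 263 were among the 370, and 76 were of at least 2-fold. Of the 60 called named genes, 12 were not called with the replicate block (AT5G05600, LTP3, XTH20, CYP76C2, NCED3, LHCB5, PSAN, CAO, GASA1, LNK2, ATMG00516 and ATMG01000), and PYL7 was called (limma adjusted p = 0.0315).

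Of the 100 named genes, 8 that were not called changed sign when 1 library was left out, and none did under the other alternatives. Medians of 12 of 45 lists changed sign under some alternative; all but the seed storage and oil body list had a median within 0.0779 of 0. Log2 fold changes ranged from -0.00765 to 0.214 for PYL8, -0.0643 to 0.111 for ABI2, -0.0498 to 0.142 for HAB1, -0.45 to 0.29 for AHG1, -0.0778 to 0.367 for OST1, -0.205 to 0.0515 for SNRK2.9, -0.13 to 0.24 for CYP707A1 and -0.13 to 0.25 for BGLU18. The median of the seed storage and oil body list ranged from -0.912 to 0.0422. The cause was not tested. With 4 residual degrees of freedom the median 95% interval spanned 0.249 log2 units to either side of the fold change, and low genes rest on few reads.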

Other observations

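Several called genes outside the lists, chosen after their values were seen, encode glutathione transferases, a cytochrome P450 and an auxin carrier. The glutathione transferase genes GSTU2 and GSTU22 were higher with 3'-butyl ABA. GSTU2 had 7.58, 5.85 and 6.497 TPM with 3'-butyl ABA and 2.43, 3.15 and 1.51 TPM with ABA, a log2 fold change of 1.21 (limma adjusted p = 0.0361). GSTU22 had 13.6, 8.63 and 9.35 TPM with 3'-butyl ABA and 4.62, 3.80 and 2.996 TPM with ABA (1.25, adjusted p = 0.0329). The cytochrome P450 gene CYP81D11 had 89.7, 97.5 and 95.9 TPM with 3'-butyl ABA and 43.9, 50.9 and 27.0 TPM with ABA (1.24, adjusted p = 0.0473). ERD9, also a glutathione transferase gene, moved the other way, with 80.5, 100.9 and 102.1 TPM with 3'-butyl ABA and 148.3, 191.0 and 219.1 TPM with ABA (-0.96, adjusted p = 0.0383). EIR1, the auxin efflux carrier of roots also known as PIN2, had 15.9, 9.10 and 11.5 TPM with 3'-butyl ABA and 5.66, 3.70 and 3.17 TPM with ABA (1.34, adjusted p = 0.0432). No library of the other compound overlapped for any of these genes.

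A pair of regulators had some of the smallest adjusted p-values. ATCTH, a zinc finger gene, had 105.3, 103.8 and 100.1 TPM with 3'-butyl ABA and 54.7, 46.1 and 50.1 TPM with ABA, against a DMSO mean of 20.0 TPM (log2 fold change 1.02, limma adjusted p = 0.0056). ZFP8, a zinc finger gene, had 13.4, 15.06 and 15.02 TPM with 3'-butyl ABA and 29.4, 27.4 and 29.6 TPM with ABA, against a DMSO mean of 28.1 TPM (-0.94, adjusted p = 0.00822). For ZFP8 the ABA libraries overlapped with DMSO and the 3'-butyl ABA libraries were below both.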
